A study of Mus musculus with 40 samples.

Results

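The genes described here are 10 stress-response genes around the transcription factor ATF4, followed in the extensor digitorum longus (EDL), a fast hindlimb muscle, of mice lacking Tsc1 in muscle fibers and of controls. They were picked by gene name from the 22844 genes of the deposited tables. They comprise 6 regulators (Atf4, Atf3, Atf5, Ddit3, Trib3 and Nupr1) and 4 effectors (Sesn2, Ddit4, Eif4ebp1 and Chac1). All 10 passed the filter on low values that left 13543 genes for testing, which kept genes at a CPM (counts scaled to a common library total) of 1 or more in at least 5 libraries. The study asked which muscle transcripts follow sustained activity of mTORC1, the nutrient-sensing kinase complex, by sequencing poly(A) RNA from TSCmKO mice and control littermates at 3 and 9 months of age, with or without the mTORC1 inhibitor rapamycin. The groups were 3mCON, 3mCON+RM, 3mTSCmKO, 3mTSCmKO+RM and the same 4 at 9 months, with 5 libraries in each of the 8 groups, 1 per mouse. CON mice were Tsc1fl/fl without Cre and TSCmKO mice carried the same floxed Tsc1 allele (strain Tsc1tm1Djk/J) recombined in muscle fibers, so all groups shared the floxed allele. The Cre driver is not given in the sources used here, and only fibers lose Tsc1 in this model while the other cells of the muscle keep it. Vehicle or rapamycin (RM) was injected on 3 days, at 4 mg per kg by the labels. A figure legend of the study states a higher daily dose for the 9-month mice, so the dose is uncertain.

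ATF4 is the main transcription factor of the integrated stress response. When kinases that sense unfolded protein, amino acid shortage, viral RNA or heme shortage phosphorylate the initiation factor eIF2α, general translation falls while upstream reading frames let ribosomes reach the Atf4 coding sequence, and mTORC1 also promotes ATF4 translation. ATF4 amount is therefore set largely after transcription, and its activity is usually read from the mRNA of its targets, among them Ddit3, Trib3, Chac1, Sesn2, Nupr1, Eif4ebp1 and Ddit4. Several of these targets act back on the pathway, either by holding ATF4 activity down or by restraining mTORC1.

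Library totals ran from 8883870 to 35224669 estimated counts, and the log2 CPM of libraries of the same group correlated across genes at r = 0.934 to 0.992. Tsc1, the deleted gene, lay between 24.4 and 35.8 CPM in the vehicle-treated TSCmKO libraries of both ages and between 51.3 and 134 CPM in the vehicle-treated CON libraries, with no overlap. Its log2 fold change was -1.99 at 3 months and -1.55 at 9 months (edgeR quasi-likelihood test, adjusted p = 2.49e-11 and 2.33e-09). In TSCmKO muscle Tsc1 was lower still after rapamycin, at -0.49 at both 9 and 3 months (adjusted p = 0.0249 and 0.0311, edgeR). These 2 calls were lost in 3 (9 months) and 5 (3 months) of the 10 fits that left out 1 library. All 6 muscle fiber markers checked were detected, and their summed level was between 85690 and 167200 CPM in every library. The mean insert length of the libraries was 175 to 239 nt in the younger and 223 to 308 nt in the older groups, so age cannot be told apart from library preparation. Library 1 of 9mTSCmKO was the least like its own group. In whole muscle, fewer cells of a type and less RNA per cell cannot be told apart.

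The promoter windows of 4 members contained the core letters TGATGNAA of the CARE motif, to which ATF4 binds together with C/EBP partners, and these stretches are printed because they mark the members with a candidate ATF4 sequence next to the start site. The windows, from RefSeq on GRCm38.p6, ran from 250 bases before to 50 bases after the annotated start. They were available for 9 of the 10 members (all but Eif4ebp1), with 2 windows for Atf5. Each match read as TTNCATCA on the gene's own strand, that is, the motif lay on the opposite strand, and is shown in capitals, 5′ to 3′ on the strand of the gene.
Atf3: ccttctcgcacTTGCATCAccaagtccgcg
Nupr1: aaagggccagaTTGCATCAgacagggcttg
Chac1: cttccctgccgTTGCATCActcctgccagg
Trib3: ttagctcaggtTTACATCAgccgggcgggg
The Atf3 stretch is chr1:191183425-191183454 on the minus strand, with its match at bases -110 to -103 from the start site, counting the first transcribed base as 1. The Nupr1 stretch is chr7:126625562-126625591 on the minus strand, with its match also at bases -110 to -103. The Chac1 stretch is chr2:119351038-119351067 on the plus strand, with its match at bases -193 to -186. The Trib3 stretch is chr2:152344028-152344057 on the minus strand, and its match lay downstream of the start, at bases 15 to 22. Atf3, Nupr1 and Chac1 carried the same 8 letters, whereas Trib3 differed in the base that the motif leaves free. Searched on both strands, the motif was present in 4.51% of the 27025 genes with a window. The cAMP response element TGACGTCA was found in no window of these 9 members and in 2.03% of all genes. The endoplasmic reticulum stress element (ERSE) was found in no window of the 9 members and in 0.137% of all genes. The 4 genes with the motif did not move as a group, as their values below show.

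On the TPM scale, which adjusts for transcript length and so permits comparison between genes, Atf4 was the most abundant member at both genotypes at 9 months, at 236 ± 28.3 TPM in 9mTSCmKO (mean ± SD, n = 5). In the same libraries Atf5 followed at 113 ± 14.4 TPM, Ddit3 at 80.6 ± 21.0 TPM and Ddit4 at 71.1 ± 31.2 TPM. Trib3 and Sesn2 were the least abundant, at 6.86 ± 2.46 and 6.19 ± 0.913 TPM. In 9mCON, Chac1 stood next to Atf4, at 69 TPM. Trib3 and Sesn2 were again lowest in 9mCON, at 1.39 and 1.86 TPM. All levels given per library below are CPM scaled by TMM library factors, which permit comparison of a gene between libraries but not between genes.

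**Figure D1:**
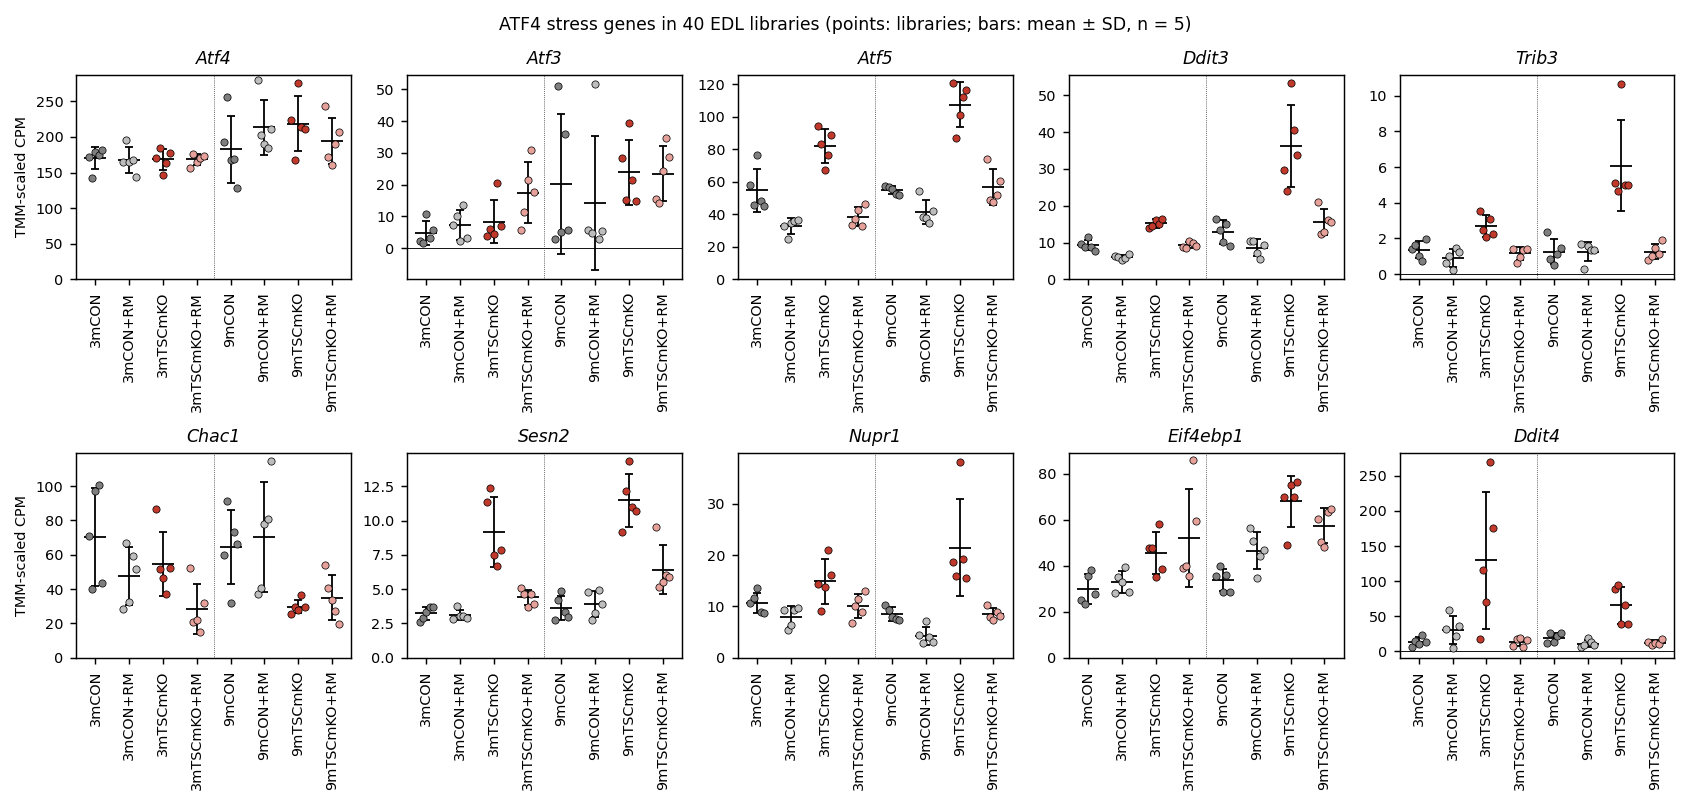
Level of each of the 10 members in all 40 libraries, 1 panel per gene, with the 8 groups on the x axis and TMM-scaled CPM on the y axis. Points are libraries, and bars give the mean ± SD of 5 libraries. All members but Ddit4 and Chac1 had their highest mean in 9mTSCmKO, exceeding the next group by more than the larger SD only for Atf5, Ddit3 and Trib3. Ddit4 was highest in 3mTSCmKO at 129.7 ± 97.3 CPM, and Chac1 was lowest in 3mTSCmKO+RM at 28.2 ± 14.7 CPM.

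Of the 10 members, 7 were higher in 9mTSCmKO than in 9mCON: Atf5, Ddit3, Trib3, Nupr1, Sesn2, Ddit4 and Eif4ebp1. Chac1, which degrades glutathione, was lower, and Atf4 and Atf3 did not pass the test. In this comparison 37.9% of all genes tested passed in either direction, 19.1% in the higher and 18.9% in the lower one. All 7 higher members had 5 TSCmKO libraries above all 5 CON libraries, which held for 8.77% of all genes. The median log2 fold change of the 10 members was 1.17, against -0.02 for all genes. Calls are at an adjusted p below 0.05 in edgeR's quasi-likelihood test. The 8 calls at 9 months held whichever of the 10 libraries was left out. Muscle fiber markers also differed here: 3 of 6 were lower in 9mTSCmKO, and their summed level was 85690 to 100800 CPM against 132400 to 142000 CPM in 9mCON. Likewise, 4 of 6 fibroblast and tendon markers, 2 of 4 endothelial, 2 of 4 adipocyte and 2 of 4 Schwann cell markers were lower, and 1 of 6 macrophage markers was higher. Their part in the members' differences was not tested.

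At 3 months, 6 of the 10 members were higher in 3mTSCmKO than in 3mCON, namely Atf5, Ddit3, Trib3, Sesn2, Ddit4 and Eif4ebp1, and none was lower. Among all genes 19.8% passed in either direction, 11.4% in the higher and 8.32% in the lower one. The libraries of both groups were fully separated for 3 members (Ddit3, Trib3 and Sesn2), against 10.9% of all genes that were separated in the higher direction. The median log2 fold change of the members was 0.65, against -0.02 for all genes. At this age no marker of fibers or of any other cell type checked passed the test. The difference between both genotype effects, tested as an interaction of genotype and age, passed for 0 of the 10 members, against 4.94% of all genes.

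Rapamycin lowered 6 members in 9mTSCmKO muscle: Atf5, Ddit3, Trib3, Nupr1, Sesn2 and Ddit4. No member was raised. Among all genes 32.6% passed in either direction, 16.8% in the lower and 15.8% in the higher one. For 5 of the 6 (all but Sesn2), every treated library lay below every vehicle library, which held for 7.15% of all genes. The median log2 fold change over the 10 members was -0.89, against -0.04 for all genes. Fiber markers moved in the same libraries, with 3 of 6 higher and 1 of 6 lower, and a summed level of 125400 to 152400 CPM after rapamycin. Of the other markers, 1 of 6 macrophage and 1 of 4 Schwann cell markers were lower, 1 of 4 satellite cell markers was higher, and endothelial markers had 1 of 4 in each direction. The part of cell content in the members' values was not tested. This comparison and the genotype comparison share the vehicle-treated 9mTSCmKO libraries, so opposite values in them are not independent of each other.

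In 3mTSCmKO muscle rapamycin lowered Atf5, Ddit3, Trib3, Sesn2, Ddit4 and Chac1, again with no member raised, while 23.6% of all genes passed in either direction, 13% in the lower and 10.6% in the higher one. The treated libraries lay wholly below the vehicle ones for 4 members (Atf5, Ddit3, Trib3 and Sesn2), against 11.6% of all genes. The members' median log2 fold change was -0.83, against 0.01 for all genes. In these libraries 3 of 6 fiber, 2 of 6 macrophage and 1 of 6 fibroblast and tendon markers were higher and 1 of 6 fiber markers was lower. The summed fiber level was 87890 to 150100 CPM before and 132900 to 165500 CPM after rapamycin, and its part was not tested.

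**Figure D2:**
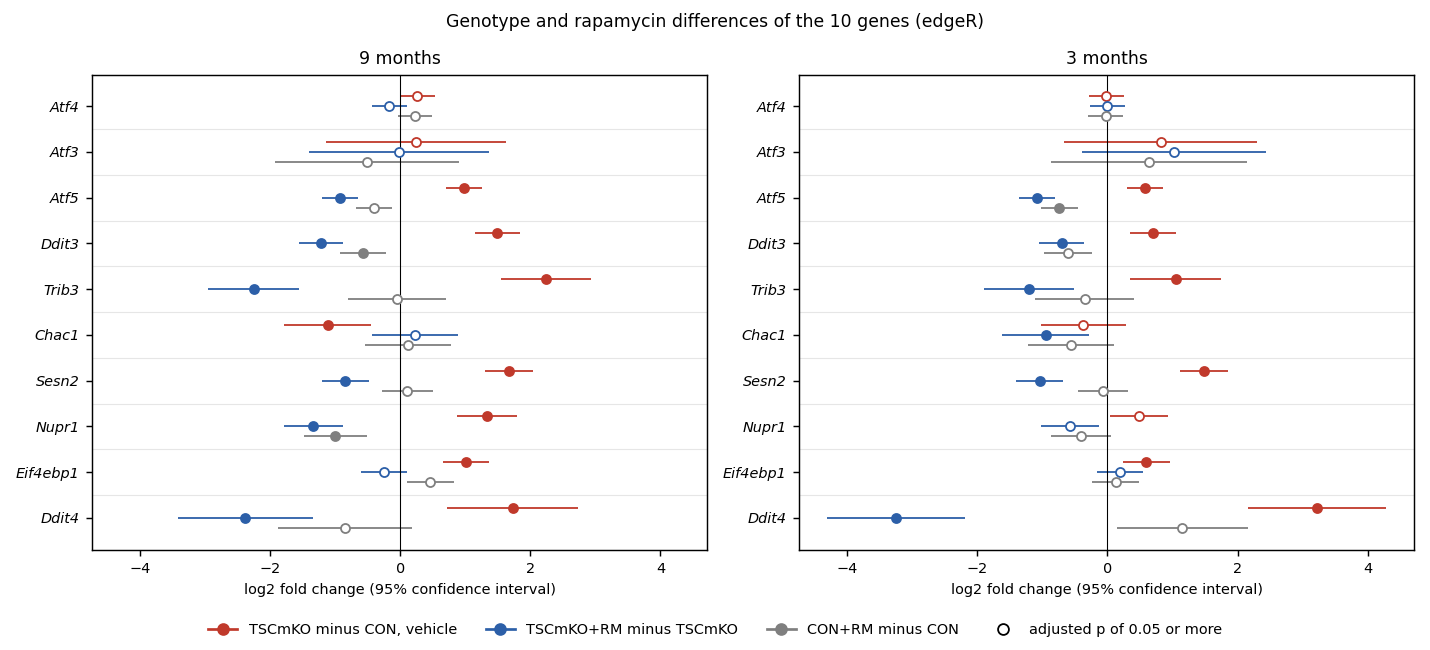
Log2 fold change of each member with its 95% confidence interval on the x axis, for genotype (TSCmKO minus CON, vehicle), rapamycin in TSCmKO and rapamycin in CON, at 9 and 3 months. Filled points passed the test and open points did not. Trib3 stood at 2.24 for genotype and -2.26 for rapamycin in TSCmKO at 9 months, and the interval of Atf4 included 0 in every comparison shown.

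Atf4 (ENSMUSG00000042406, chromosome 15, 80255184 to 80257541, plus strand, GRCm38) encodes the transcription factor itself. At 9 months the CON libraries had 192, 256, 167, 169.7 and 128 CPM and the TSCmKO libraries 224, 167, 275, 215 and 211 CPM. The ranges overlapped widely, with the lowest TSCmKO library level with the middle of the controls. This gave a log2 fold change of 0.26 ± 0.14 (± SE here and for all fold changes), with a 95% confidence interval of -0.0081 to 0.53 and an adjusted p of 0.131 in the edgeR quasi-likelihood test. With each of the 10 libraries left out in turn, it passed once, at 0.41 without library 2 of 9mCON, the highest control (adjusted p = 0.0128, edgeR). The lowest value was 0.16 without library 3 of 9mTSCmKO (adjusted p = 0.378, edgeR). It also passed when deposited TPM were tested with limma, at 0.35 (adjusted p = 0.00388). In the younger mice the libraries of both genotypes overlapped between 143 and 184 CPM, and the log2 fold change was -0.015 (95% interval -0.28 to 0.25). After rapamycin the 9mTSCmKO libraries had 243, 172, 161, 189.8 and 207 CPM. This was a log2 fold change of -0.17 (95% interval -0.44 to 0.10). No step in the order of the 8 group means of Atf4 exceeded the larger SD of the neighbouring groups, and means ran from 167 CPM in 3mCON+RM to 218 CPM in 9mTSCmKO.

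Atf3 (ENSMUSG00000026628, chromosome 1, 191170296 to 191218039, minus strand), an early-response transcription factor of the same family, was the most variable member. The 9mCON libraries had 2.77, 51.2, 5.198, 35.8 and 5.84 CPM and the 9mTSCmKO libraries 28.4, 15.2, 39.5, 21.4 and 14.7 CPM. A pair of control libraries exceeded most TSCmKO libraries while the other 3 controls lay below all of them. Genotype gave a log2 fold change of 0.24 ± 0.71 (95% interval -1.14 to 1.63), so a change within these bounds was not detectable with these libraries. The value ran from -0.013 to 0.93 when 1 library was left out, the highest being without library 2 of 9mCON and the lowest without library 3 of 9mTSCmKO, and was 0.96 with limma on log2(TPM + 1), and it passed in none of these fits. Rapamycin values in TSCmKO were -0.02 ± 0.70 at 9 months and 1.03 ± 0.72 at 3 months, and neither passed the test or did so with any 1 library left out. The 9-month value then ran from -0.22 (without library 4 of 9mTSCmKO+RM) to 0.24 (without library 3 of 9mTSCmKO) and so had no stable sign. The 3-month value ran from 0.71 (without library 4 of 3mTSCmKO+RM) to 1.69 (without library 4 of 3mTSCmKO). The order of the 8 group means of Atf3 had no step beyond its spread.

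Atf5 (ENSMUSG00000038539, chromosome 7, 44812256 to 44816658, minus strand) encodes a relative of ATF4 whose translation is likewise controlled by upstream reading frames and which is known for the mitochondrial unfolded protein response. Its exons overlap those of Nup62 and Il4i1 on the other strand, and reads were counted by strand. The 9mCON libraries were close together at 57.3, 56.7, 55.6, 52.4 and 51.7 CPM, and the 9mTSCmKO libraries had 121, 87.1, 101, 112 and 117 CPM. Every TSCmKO library was above every control, at a log2 fold change of 0.97 ± 0.14 (adjusted p = 7.58e-07, edgeR).
After rapamycin the 9mTSCmKO libraries had 74.3, 49.0, 47.4, 51.7 and 60.6 CPM, wholly below the vehicle libraries and around the controls. The rapamycin log2 fold change was -0.93 ± 0.14 (adjusted p = 3.34e-06, edgeR). In the 3-month mice, TSCmKO libraries had 94.1, 83.0, 67.2, 76.4 and 88.6 CPM against 58.3, 45.5, 76.6, 48.4 and 45.2 CPM in CON. Library 3 of 3mCON reached into the TSCmKO range, and the genotype log2 fold change was 0.58 ± 0.14 (adjusted p = 0.00254, edgeR). The treated 3mTSCmKO libraries had 33.7, 37.4, 42.5, 33.0 and 46.6 CPM, a log2 fold change of -1.08 ± 0.14 (adjusted p = 2.91e-07, edgeR). Atf5 was the only member called in 3mCON muscle on rapamycin, where the libraries had 32.8, 24.7, 34.7, 35.8 and 36.3 CPM, all below those of 3mCON (log2 fold change -0.74 ± 0.14, adjusted p = 0.00566, edgeR). In order of group means, 9mTSCmKO stood above 3mTSCmKO, then came 9mTSCmKO+RM, 3mCON and 9mCON within their spread, and then the 3 remaining rapamycin groups. Of these, neighbours lay within their spread, but 9mCON+RM (41.4 ± 7.59 CPM) and 3mCON+RM (32.9 ± 4.78 CPM) differed by more than it.

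Ddit3 (ENSMUSG00000025408, chromosome 10, 127290774 to 127296288, plus strand) encodes CHOP, a transcription factor that ATF4 induces and that is associated with prolonged stress. Its exons overlap those of Mars and Gm4189 on the other strand. On its own strand they overlap a second annotated gene of the same name, which the deposited tables do not hold. Controls at 9 months had 16.5, 13.5, 10.2, 15.1 and 9.04 CPM and the 9mTSCmKO libraries 29.6, 24.0, 53.2, 40.5 and 33.7 CPM. The lowest TSCmKO library stood well above the highest control. Genotype raised Ddit3 by 1.49 ± 0.18 on the log2 scale, a 2.81-fold difference (adjusted p = 1.08e-08, edgeR).
Rapamycin brought the 9mTSCmKO libraries to 21.1, 12.3, 12.8, 16.2 and 15.7 CPM. These lay below all vehicle libraries and overlapped the controls, with a log2 fold change of -1.22 ± 0.18 (adjusted p = 1.22e-06, edgeR). At 3 months the CON libraries had 9.52, 8.92, 11.6, 8.72 and 7.77 CPM and the TSCmKO libraries 13.8, 14.5, 16.2, 14.9 and 16.4 CPM, again apart. Here the genotype value was 0.70 ± 0.18 (adjusted p = 0.00358, edgeR). The treated 3mTSCmKO libraries had 8.72, 8.44, 10.5, 9.78 and 9.13 CPM, all within the range of the controls (rapamycin log2 fold change -0.71 ± 0.18, adjusted p = 0.00271, edgeR). The genotype effect was larger by 0.79 ± 0.25 at 9 than at 3 months, which missed the threshold at an adjusted p of 0.0555. The same difference passed with DESeq2 at 0.80 (adjusted p = 0.0353), with insert size as a term in edgeR at 0.86 (adjusted p = 0.0454) and with limma on TPM at 0.87 (adjusted p = 0.011). It also passed without library 1 of 9mCON at 0.91 (adjusted p = 0.0211), library 2 of 9mTSCmKO at 0.89 (0.0219) or library 5 of 9mTSCmKO at 0.82 (0.0484).

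Trib3 (ENSMUSG00000032715, chromosome 2, 152337422 to 152344032, minus strand) encodes a pseudokinase that is induced by ATF4 and CHOP and dampens their activity, and that also binds AKT. It was expressed at a low level. The 9mCON libraries had 2.36, 0.830, 0.487, 1.15 and 1.45 CPM, or 6 to 40 counts, and the 9mTSCmKO libraries had 5.10, 4.65, 10.7, 5.02 and 4.99 CPM, or 79 to 191 counts. All TSCmKO libraries stood above all controls, and library 3 was about 2 times the others. The log2 fold change of 2.24 ± 0.35, 4.72-fold, was the largest of any member in this comparison (adjusted p = 3.33e-06, edgeR).
With rapamycin the 9mTSCmKO libraries had 0.782, 1.04, 1.47, 1.10 and 1.89 CPM, all below the vehicle libraries and inside the control range. The rapamycin log2 fold change was -2.26 ± 0.35 (4.77-fold lower, adjusted p = 5.34e-06, edgeR). At 3 months the CON libraries had 1.40, 1.64, 1.03, 0.744 and 1.94 CPM and the TSCmKO libraries 3.56, 2.48, 2.06, 3.10 and 2.23 CPM, narrowly apart. Their log2 fold change was 1.05 ± 0.36 (adjusted p = 0.0321, edgeR). This call was lost without library 3 of 3mCON (0.99, adjusted p = 0.0748), library 4 of 3mCON (0.87, 0.116), library 1 of 3mTSCmKO (0.95, 0.0759) or library 4 of 3mTSCmKO (1.005, 0.0617), and with limma on log2(TPM + 0.1) (adjusted p = 0.0844). The treated 3mTSCmKO libraries had 1.39, 0.630, 0.971, 1.37 and 1.42 CPM, below all vehicle libraries (log2 fold change -1.21 ± 0.35, adjusted p = 0.01, edgeR). Trib3 means thus stepped from 9mTSCmKO to 3mTSCmKO to the remaining 6 groups, which did not differ beyond their spread.

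Nupr1 (ENSMUSG00000030717, chromosome 7, 126623249 to 126630861, minus strand) encodes a small stress-induced nuclear protein. In 9mCON the levels were 10.3, 9.36, 7.88, 7.59 and 7.38 CPM, and in 9mTSCmKO they were 18.7, 15.8, 38.1, 19.2 and 15.5 CPM. The TSCmKO libraries were all above the controls, and library 3 was again the highest, as for Ddit3 and Trib3. The log2 fold change was 1.33 ± 0.23 (2.52-fold, adjusted p = 1.59e-05, edgeR), and 1.02 without library 3, where it still passed.
After rapamycin the 9mTSCmKO libraries had 10.2, 7.84, 7.34, 8.89 and 8.17 CPM, spanning nearly the same range as the vehicle-treated controls (log2 fold change -1.34 ± 0.23, adjusted p = 2.44e-05, edgeR). At 3 months the TSCmKO libraries had 14.4, 9.01, 13.8, 21.1 and 16.1 CPM and the CON libraries 10.8, 11.6, 13.6, 8.96 and 8.70 CPM. They overlapped, and the log2 fold change of 0.48 ± 0.23 did not pass (adjusted p = 0.14, edgeR). The 3-month rapamycin value in TSCmKO was -0.58 ± 0.23 (adjusted p = 0.0582, edgeR). It passed without library 2 of 3mTSCmKO (-0.71, adjusted p = 0.0227) or library 5 of 3mTSCmKO+RM (-0.69, 0.0394), and with only both groups fitted (-0.59, 0.0477).

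Sesn2 (ENSMUSG00000028893, chromosome 4, 132492032 to 132510501, minus strand) encodes sestrin 2, a leucine-binding protein that restrains mTORC1 when amino acids are short. The 9mCON libraries had 2.77, 4.23, 4.87, 3.33 and 3.00 CPM and the 9mTSCmKO libraries 9.15, 12.2, 14.3, 11.02 and 10.7 CPM, with a wide gap between them. Genotype thus gave a log2 fold change of 1.67 ± 0.19 (3.18-fold, adjusted p = 4.46e-09, edgeR). At 3 months CON had 2.58, 2.91, 3.31, 3.66 and 3.72 CPM and TSCmKO 11.3, 12.4, 7.50, 6.65 and 7.84 CPM, also apart. That difference was 1.48 ± 0.19 (adjusted p = 1.46e-07, edgeR), so Sesn2 was the member whose genotype effects at both ages lay closest together among those called at both (difference 0.19, adjusted p = 0.752).
Rapamycin took the 9mTSCmKO libraries to 9.55, 5.19, 5.55, 5.997 and 5.85 CPM. Library 1 stayed within the vehicle range while the other 4 fell between the vehicle libraries and the controls. Its rapamycin log2 fold change was -0.84 ± 0.18 (adjusted p = 0.000438, edgeR). The treated 3mTSCmKO libraries had 5.05, 4.66, 3.72, 4.63 and 3.91 CPM, all below the vehicle libraries and, at their lowest, level with the highest control (log2 fold change -1.04 ± 0.18, adjusted p = 4.01e-05, edgeR). In order of Sesn2 means, both vehicle TSCmKO groups were highest and 9mTSCmKO+RM stood a step below them and a step above 3mTSCmKO+RM. No neighbours in the order from 3mTSCmKO+RM down differed by more than the larger SD, although 3mTSCmKO+RM (4.40 ± 0.558 CPM) and the lowest group, 3mCON+RM (3.10 ± 0.373 CPM), did.

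Ddit4 (ENSMUSG00000020108, chromosome 10, 59949669 to 59951834, minus strand) encodes REDD1, which inhibits mTORC1 by way of the TSC complex and is also induced by glucocorticoids and hypoxia. The 3mCON libraries had 6.05, 15.4, 10.4, 23.6 and 13.5 CPM and the 3mTSCmKO libraries 17.7, 116, 70.1, 269.5 and 175 CPM. Library 1 of 3mTSCmKO lay among the controls and the other 4 were far above them. Genotype gave a log2 fold change of 3.23 ± 0.54 (9.37-fold, adjusted p = 3.23e-05, edgeR), and leaving out 1 library at a time gave 2.79 to 3.54. At 9 months CON had 11.2, 25.6, 13.2, 22.5 and 25.9 CPM and TSCmKO 88.9, 94.96, 38.4, 66.2 and 39.4 CPM, apart (log2 fold change 1.73 ± 0.51, adjusted p = 0.00795, edgeR).
Rapamycin brought Ddit4 down to 8.16, 17.7, 19.7, 6.24 and 16.8 CPM in 3mTSCmKO, 9.5-fold lower (log2 fold change -3.25 ± 0.54, adjusted p = 2.79e-05, edgeR). The 9mTSCmKO libraries came to 13.3, 9.57, 11.5, 10.5 and 18.1 CPM, 5.21-fold lower and apart from the vehicle libraries (-2.38 ± 0.53, adjusted p = 0.000776, edgeR). The difference of the genotype effects between ages, -1.50 (95% interval -2.90 to -0.095), did not pass after adjustment (adjusted p = 0.242).
Of 8 genes known to respond to glucocorticoids, as Ddit4 does, 4 were higher in 3mTSCmKO and none was lower (median log2 fold change 0.69), where 11.4% of all genes were higher. Among the 4 were Fkbp5, a glucocorticoid receptor chaperone (log2 fold change 1.17), and Tsc22d3, which encodes GILZ (0.80). After rapamycin 6 of the 8 were lower in 3mTSCmKO (median -0.998), where 13% of all genes were lower, led by Klf15 at -1.36 and Sgk1 at -1.17. The summed level of the 8 genes was 1946 to 2557 CPM in 3mCON, 2852 to 4487 CPM in 3mTSCmKO and 945.5 to 2902 CPM in 3mTSCmKO+RM. At 9 months 1 was higher (Tsc22d3, 0.52) and 1 lower (Klf9, -0.52) in TSCmKO, 25% of the list against 37.9% of all genes. After rapamycin 3 were lower (37.5% of the list, where 16.8% of all genes were lower), led by Tsc22d3 at -1.04 and Sgk1 at -0.70. The part of glucocorticoid signalling in the Ddit4 values was not tested.

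Eif4ebp1 (ENSMUSG00000031490, chromosome 8, 27260329 to 27276674, plus strand) encodes 4E-BP1, the repressor of cap-dependent translation that mTORC1 phosphorylates and thereby inactivates. Of the 31-base stretches in its transcripts, 4.2% also occurred in other genes of the table (1.33% for Nupr1), so part of its reads may have been divided among them. The 9mCON libraries had 35.6, 39.9, 28.7, 35.9 and 28.7 CPM and the 9mTSCmKO libraries 69.7, 49.0, 74.9, 70.0 and 76.3 CPM. All TSCmKO libraries were above the controls, library 2 being the nearest to them (log2 fold change 1.01 ± 0.18, adjusted p = 3.26e-05, edgeR).
The 3-month values overlapped, with 25.2, 23.2, 35.4, 38.2 and 27.5 CPM in CON and 47.9, 47.6, 35.0, 58.0 and 38.7 CPM in TSCmKO. The log2 fold change of 0.60 ± 0.18 passed (adjusted p = 0.0172, edgeR) but not without library 4 of 3mTSCmKO (0.51, adjusted p = 0.0573). Unlike the other 6 members that were higher in 9mTSCmKO, Eif4ebp1 was not called lower after rapamycin. Treated 9mTSCmKO libraries had 60.5, 50.4, 48.1, 63.5 and 64.5 CPM, overlapping the vehicle libraries with a value of -0.24 ± 0.18 on the log2 scale (adjusted p = 0.313, edgeR). In 3mTSCmKO the rapamycin value was 0.19 (adjusted p = 0.483, edgeR). Its sign rested on library 4 of 3mTSCmKO+RM, without which it was -0.065, and without any other library it stayed above 0, up to 0.30 without library 3 of that group.

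Chac1 (ENSMUSG00000027313, chromosome 2, 119351229 to 119354381, plus strand) encodes a glutathione-degrading enzyme, is a known target of ATF4 and CHOP, and it was the member that went the other way. Chac1 levels in 9mCON were 60.1, 91.4, 32.0, 73.0 and 66.0 CPM and in 9mTSCmKO 25.5, 29.5, 28.04, 36.4 and 29.4 CPM. The TSCmKO libraries were narrowly spread and below 4 of the 5 controls, and library 3 of 9mCON lay among them. Chac1 had a genotype log2 fold change of -1.12 ± 0.34, 2.17-fold lower (adjusted p = 0.00938, edgeR). Rapamycin in 9mTSCmKO gave 53.9, 40.6, 33.4, 27.4 and 19.5 CPM, spread on both sides of the vehicle libraries (0.23 ± 0.34, adjusted p = 0.636, edgeR).
At 3 months CON had 70.8, 39.9, 97.3, 100.4 and 43.4 CPM and TSCmKO 86.5, 51.8, 46.2, 36.9 and 52.0 CPM, overlapping (log2 fold change -0.37, SE 0.33, adjusted p = 0.482, edgeR). The treated 3mTSCmKO libraries had 52.1, 20.7, 21.7, 14.8 and 31.9 CPM, a log2 fold change of -0.95 ± 0.34 (adjusted p = 0.0377, edgeR). That call was lost on leaving out any of 6 of the 10 libraries: library 1 (-0.73, adjusted p = 0.137), 2 (-0.97, 0.0505) or 5 (-0.97, 0.0521) of 3mTSCmKO, or library 2 (-0.86, 0.0935), 3 (-0.87, 0.0865) or 4 (-0.79, 0.115) of 3mTSCmKO+RM. It was also lost with no filter on low values (adjusted p = 0.0767) or in a fit of these 2 groups alone (adjusted p = 0.0685).

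Whether rapamycin acted differently in TSCmKO and CON muscle was tested as an interaction. At 9 months it passed for Trib3 and Sesn2, which fell in TSCmKO and stood at -0.053 and 0.11 in CON, where neither passed, against 4.87% of all genes in either direction and 2.31% in the lower one. The Trib3 interaction was -2.20 ± 0.53 (adjusted p = 0.00994, edgeR) and passed in all 20 fits that left out 1 library. The 9-month Sesn2 interaction was -0.95 ± 0.27 (adjusted p = 0.0305, edgeR). It was lost in 8 of those 20 fits, with values of -0.86 to -0.93 and adjusted p of 0.0505 to 0.0614, on leaving out library 4 or 5 of 9mCON, 1 or 4 of 9mCON+RM, 3 of 9mTSCmKO, or 2, 3 or 5 of 9mTSCmKO+RM. It was lost too with insert size as a term (adjusted p = 0.0583) and in a fit of the 4 groups alone (adjusted p = 0.111).
At 3 months the interaction passed for Ddit4 and Sesn2, against 3.45% of all genes and 2.09% in the lower direction. The Ddit4 interaction was -4.40 ± 0.74 (adjusted p = 0.000424, edgeR) and passed in all 20 such fits. The 3mCON+RM libraries for Ddit4 had 31.4, 58.7, 4.27, 22.2 and 36.5 CPM, 3 of them above every vehicle control, at a log2 fold change of 1.15 that did not pass (adjusted p = 0.478). The 3-month Sesn2 interaction was -0.98 ± 0.27 (adjusted p = 0.0316, edgeR), lost in 7 of 20 fits with values of -0.84 to -0.95 and adjusted p of 0.0518 to 0.0775, on leaving out library 1 or 2 of 3mCON, 2 of 3mCON+RM, 1 or 2 of 3mTSCmKO, or 3 or 5 of 3mTSCmKO+RM, and with no filter (adjusted p = 0.0528). For Atf5, Ddit3, Nupr1 and Ddit4 at 9 months the interactions were -0.53, -0.64, -0.34 and -1.53, with adjusted p of 0.117, 0.128, 0.605 and 0.231. For Atf5, Ddit3, Trib3 and Chac1 at 3 months they were -0.35, -0.097, -0.86 and -0.39, with adjusted p of 0.447, 0.929, 0.475 and 0.801 (edgeR). These falls in TSCmKO are thus not shown to differ from the values in CON. The 9-month Atf5 interaction passed (-0.65, adjusted p = 0.0433) without library 1 of 9mTSCmKO+RM.

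In controls, rapamycin lowered Ddit3 and Nupr1 at 9 months, against 11.8% of all genes in either direction and 6.82% in the lower one. The 9mCON+RM libraries had 4.32, 2.93, 7.16, 4.04 and 2.97 CPM of Nupr1, all below the vehicle controls, as was the case for 3.74% of all genes (log2 fold change -0.997 ± 0.25, adjusted p = 0.00605, edgeR). For Ddit3 they had 10.5, 10.4, 7.09, 5.42 and 9.45 CPM, overlapping the controls (-0.57 ± 0.18, adjusted p = 0.0322, edgeR). The Ddit3 call was lost without library 1 (-0.47, adjusted p = 0.123), 2 (-0.56, 0.0517) or 4 (-0.51, 0.0818) of 9mCON, or library 3 (-0.52, 0.0692) or 4 (-0.45, 0.112) of 9mCON+RM. It was also lost with no filter (adjusted p = 0.0594) or with only both groups fitted (adjusted p = 0.145). Atf5 stood at -0.40 (adjusted p = 0.0583, edgeR) and passed with upper-quartile scaling (adjusted p = 0.0338), with limma on TPM (adjusted p = 0.0217) and without library 1 of 9mCON+RM (-0.50, adjusted p = 0.0217).
The control libraries given rapamycin at 9 months also differed in other cell types. All 6 fibroblast and tendon markers were lower (summed level 111.5 to 505 CPM against 696.2 to 1511 CPM), as were 5 of 6 macrophage markers (7.222 to 21.27 against 26.75 to 83.46 CPM) and 1 of 4 Schwann cell markers, and none was at 0. Of the 6 fiber markers 0 passed, while their summed level was 159900 to 167200 CPM in 9mCON+RM against 132400 to 142000 CPM in 9mCON. The part of fibers and these other cell types in the Nupr1 and Ddit3 values was not tested. Leaving out library 3 of 9mCON+RM, which had 51.7 CPM of Atf3 against 2.92 to 5.74 CPM in the other 4, moved the Atf3 value from -0.51 (adjusted p = 0.726) to -2.08 (adjusted p = 0.05), the 1 fit of 10 in which it passed, and that of Eif4ebp1 from 0.46 (adjusted p = 0.0973) to 0.55 (adjusted p = 0.0492). Without library 2 of 9mCON, which had 51.2 CPM, the Atf3 value was 0.17 (adjusted p = 0.924), so its sign also rested on 1 library.
At 3 months Atf5 was the 1 member called, against 0.679% of all genes in either direction and 0.318% in the lower one. Ddit3 had 6.37, 6.10, 5.39, 5.79 and 6.86 CPM in 3mCON+RM, all below the controls, but its value of -0.61 ± 0.19 had an adjusted p of 0.146 (edgeR). Ddit3 and Atf5 were the 2 members whose groups did not overlap in this direction, against 2.72% of all genes. With only both groups fitted, Ddit3 passed (adjusted p = 0.0149).

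Setting rapamycin-treated TSCmKO muscle against vehicle-treated CON muscle shows where each gene stood after treatment. These values share libraries with both comparisons above. At 9 months 3 members passed, a share near the 31.9% of all genes. Sesn2 remained higher by 0.83 ± 0.19 (adjusted p = 0.000947, edgeR) and Eif4ebp1 by 0.77 ± 0.18 (adjusted p = 0.00132, edgeR), both with groups apart, as for 9.31% of all genes. Chac1 remained lower by -0.89 (adjusted p = 0.043, edgeR). The Chac1 call was lost in 8 of 10 fits that left out 1 library (all but library 3 of 9mCON and library 1 of 9mTSCmKO+RM), with values of -0.73 to -0.95 and adjusted p of 0.0523 to 0.12, and with insert size as a term (-0.69, adjusted p = 0.145), no filter (adjusted p = 0.0828) or limma on TPM (adjusted p = 0.0536). Atf5 (0.05), Ddit3 (0.28), Trib3 (-0.02), Nupr1 (-0.0044) and Ddit4 (-0.65) did not pass. The 95% intervals were -0.23 to 0.32 for Atf5, -0.07 to 0.62 for Ddit3 and -0.76 to 0.73 for Trib3, so differences inside these bounds remain possible. In these libraries 5 of 6 fibroblast and tendon markers, 2 of 6 macrophage markers and 1 of 6 fiber markers were lower than in 9mCON and 1 of 6 fiber markers was higher, and 1 of 4 adipocyte and 1 of 4 Schwann cell markers were lower.
At 3 months 3 members passed as well, against 16.7% of all genes. Eif4ebp1 was higher in 3mTSCmKO+RM than in 3mCON by 0.79 (adjusted p = 0.00183, edgeR), where 1 of 6 fiber and 2 of 6 macrophage markers were also higher and 1 of 6 fiber markers was lower. Atf5 was lower at -0.51 (adjusted p = 0.00949, edgeR), a call lost without library 3 of 3mCON (-0.34, adjusted p = 0.0918). Chac1 was lower, by 1.32 on the log2 scale (value -1.32, adjusted p = 0.00524, edgeR). Sesn2 was the 1 member fully apart and higher, against 9.72% of all genes, at 0.44 (adjusted p = 0.114, edgeR), and passed with only these 2 groups fitted (0.46, adjusted p = 0.0293). Atf3 stood at 1.85 (adjusted p = 0.0942, edgeR), passing with DESeq2 (1.88, adjusted p = 0.0468), with limma on TPM (1.80, adjusted p = 0.0363), with only both groups fitted (1.86, adjusted p = 0.0468) and without library 3 of 3mCON (2.46, adjusted p = 0.0473).

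Other genes of the pathway were read from lists and are given by the counts that passed the test, to be read against the shares over all genes. These were 37.9% and 19.8% for genotype at 9 and 3 months and 32.6% and 23.6% for rapamycin in 9mTSCmKO and 3mTSCmKO. Of 7 genes for eIF2α (Eif2s1), its 4 kinases and 2 phosphatase subunits, 3 were higher in TSCmKO at each age and none was lower (42.9% at each age, median log2 fold change 0.12 at 9 and 0.29 at 3 months). The regulated phosphatase subunit Ppp1r15a, known as GADD34 and itself an ATF4 target, was higher by 0.76 and 0.82 at 9 and 3 months and fell by 0.76 and 0.81 after rapamycin in TSCmKO. The kinase gene Eif2ak2 (PKR) was higher by 0.69 and 0.76. After rapamycin 1 of the 7 was higher and 2 were lower at 9 months, and 2 were lower at 3 months (medians -0.11 and -0.14), that is 42.9% and 28.6%, near the share of all genes at 3 months. Of 10 listed dimer partners of ATF4, 4 were tested. At 9 months 2 were higher, among them Cebpg (0.35), and Maf was lower (-1.44). At 3 months Cebpg was higher (0.60) and Maf lower (-0.69). After rapamycin Cebpg was lower at both ages (-0.50 and -1.15), and Maf was higher at 9 months (0.57).

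Enzymes of serine, one-carbon and asparagine synthesis, which supply amino acids and folate units, were split. Of 13, 5 were higher and 2 lower at 9 months (53.8%, median 0.18), and 2 were higher and 2 lower at 3 months (30.8%, median 0.28). Mthfd2, the mitochondrial folate enzyme, rose by 3.21 on the log2 scale at 9 months, from 3.85 to 35.8 CPM on average, and by 2.68 at 3 months, whereas Aldh1l2 was lower at 3 months (-0.94). Psat1, of serine synthesis, rose by 3.15 at 9 months, from 1.42 ± 0.376 to 12.6 ± 3.44 CPM. After rapamycin 6 of the 13 were lower and 1 higher at 9 months (53.8%, median -0.54), led by Asns, the asparagine synthetase, at -2.43 and Psat1 at -2.13. At 3 months 6 were lower and 2 higher (61.5%, median -0.21), led by Mthfd2 at -1.69 and Cth, of cysteine synthesis, at -1.58.

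Amino acid transporters were higher in 9mTSCmKO in 6 of 9 cases and lower in 2 (88.9%, median 1.03), and higher in 3 of 9 at 3 months with none lower (33.3%, median 0.18). The leucine transporter subunit Slc7a5 stood at 2.19 and 1.43 at 9 and 3 months, and the glycine transporter Slc6a9 at 1.75 and 1.26. Rapamycin lowered 5 and raised 1 of the 9 in 9mTSCmKO (66.7%, median -0.63). Slc7a1 fell by 0.93 and Slc3a2 by 0.67, and Slc1a4 and Slc7a11, which averaged under 5 CPM, fell further, by 1.35 and 1.26. It lowered 2 in 3mTSCmKO (22.2%, a share like that of all genes, median -0.23), Slc38a2 at -1.02 and Slc7a5 at -0.58. Cytosolic aminoacyl-tRNA synthetases did not share a direction. Of 20, 7 were higher and 2 lower at 9 months (45%, median 0.06), led by Nars (0.77) and Sars (0.68), and 6 were higher and 1 lower at 3 months (35%, median 0.14), led by Sars (0.70) and Gars (0.64). After rapamycin 7 were higher and 4 lower at 9 months (55%, median 0.01), led by Vars (1.12) and Dars (0.63). At 3 months 5 were higher and 5 lower (50%, median -0.04), led by Vars (0.96) and Eprs (0.65).

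Other known ATF4 targets were higher in 7 of 10 cases and lower in 1 at each age (80% at both, medians 0.42 at 9 and 0.57 at 3 months). Gadd45a, a growth arrest gene linked to muscle atrophy, was higher by 2.74 and 1.96. Gdf15, a stress-induced secreted factor, had 6.11 CPM on average in 9mTSCmKO, 0.0901 CPM in 9mCON and 0.375 CPM in 9mTSCmKO+RM. The lower gene was Nars2, a mitochondrial tRNA synthetase, at 9 months (-0.53) and Stbd1, a glycogen-binding protein, at 3 months (-1.18). Stbd1 was higher at 9 months (0.71), and its genotype effects differed between ages by 1.89 (adjusted p = 3.73e-08, edgeR). Rapamycin lowered 7 and raised 1 of the 10 at 9 months (80%, median -0.60), and lowered 5 and raised 1 at 3 months (60%, median -0.50). Gadd45a fell by 1.92 and 2.38, and Vldlr, a lipoprotein receptor, fell by 1.43 at 3 months. In the XBP1 and ATF6 arm, which controls chaperones of the endoplasmic reticulum and is separate from ATF4, 8 of 14 genes were higher at 9 months and 5 of 14 at 3 months, with none lower (57.1% and 35.7%, medians 0.33 and 0.31). The chaperone Hspa5 (BiP) stood at 0.79 and 0.61, Manf at 0.79 at 9 months and Xbp1 at 0.96 at 3 months. Rapamycin lowered 4 and raised 1 of the 14 at 9 months (35.7%, close to all genes, median -0.25) and lowered 8 and raised 1 at 3 months (64.3%, median -0.39). Hspa5 fell by 1.30 and 1.27 and Manf by 1.43 and 1.08, while Sdf2l1, a chaperone partner that averaged under 5 CPM, fell by 1.81 at each age.

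Close relatives of the members did not all move with them. Of 12 paralogs tested, 3 were higher and 2 lower at 9 months (41.7%, median -0.13) and 2 were higher at 3 months (16.7%, median 0.06), both near the share of all genes. Both other sestrins were higher in TSCmKO, Sesn3 by 1.82 and 1.81 and Sesn1 by 1.10 and 1.24 at 9 and 3 months. After rapamycin 5 paralogs were lower and 3 higher at 9 months (66.7%, median -0.24), and 7 were lower and 1 higher at 3 months (66.7%, median -0.39). Ddit4l, the relative of Ddit4, fell by 1.34 and 1.43, Sesn3 fell by 1.42 at 3 months, and Trib1 rose by 1.09 at 9 months. For comparison, the median over all genes in these 4 comparisons lay between -0.04 and 0.01.

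**Figure D3:**
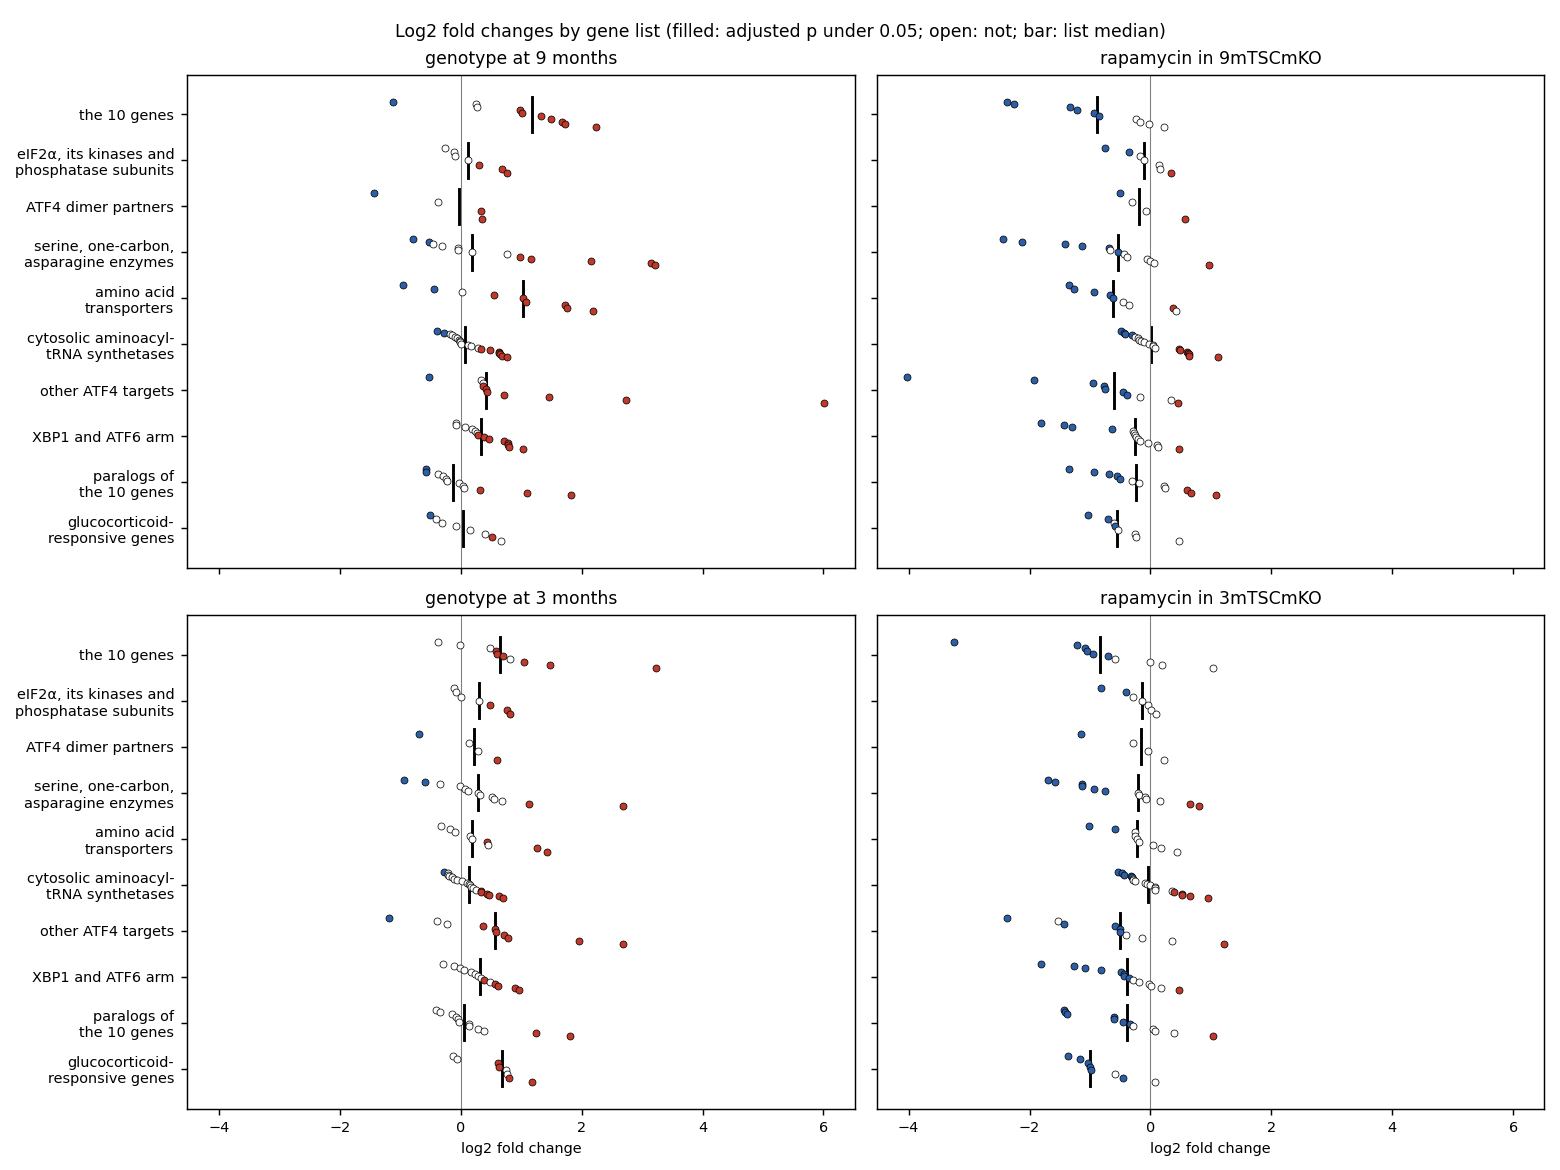
Log2 fold change (x axis) of every tested gene in 10 gene lists (y axis), in 4 panels for genotype and for rapamycin in TSCmKO at 9 and 3 months. Filled red and blue points passed the test as higher and lower, open points did not, and the bar is the median of the list. The members had the highest median of the 10 lists for genotype at 9 months, 1.17, followed by the amino acid transporters at 1.03.

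Across the 40 libraries the regulators and effectors varied together to different degrees, given here as Pearson correlations of log2 CPM that describe these libraries and rest partly on the shared group structure. Atf5 and Ddit3 were the closest pair (r = 0.872) and still correlated in their deviations from the group means (r = 0.455). Ddit3 and Sesn2 correlated at 0.777 over all libraries and at 0.0035 within groups, and Ddit3 and Trib3 at 0.714 and 0.075. For these pairs the correlation over all libraries came mostly from differences between groups. The low counts of Sesn2 and Trib3 limit what their deviations can show about mice of a group. Atf4 did the reverse with Ddit3, at 0.479 over all libraries and 0.61 within groups. Chac1 ran against Eif4ebp1 (-0.42 over all libraries, -0.0122 within groups).

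**Figure D4:**
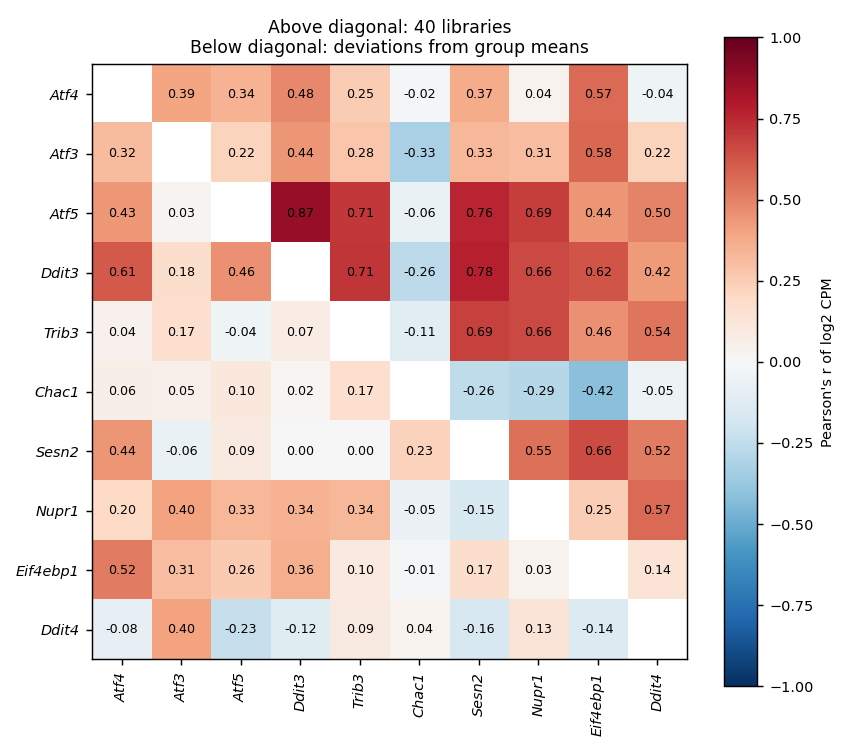
Pearson correlation between the members in log2 CPM, as a color grid with the 10 genes on both axes. Cells above the diagonal use all 40 libraries and cells below it use deviations from the group means. Atf5 with Ddit3 reached 0.872 above and 0.455 below the diagonal, while Ddit3 with Sesn2 went from 0.777 to 0.0035.

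By the same measure over 40 libraries, which carries the differences between the 8 groups, the non-member genes nearest to each member were as follows, with the correlation of deviations from the group means given second. Ddit3 was nearest to Ostf1 (r = 0.931, within groups 0.554), Ypel5 (0.912, 0.433) and Ppa1 (0.911, 0.366). Sesn2 was nearest to Fam214b (0.927, 0.377), Twf2 (0.925, 0.474) and Ndrg2 (0.917, 0.609). Atf5 was nearest to Wipi1 (0.907, 0.196), Pick1 (0.882, 0.0223) and Mllt11 (0.87, 0.477), so its likeness to Wipi1 and Pick1 lay mostly between groups. Trib3 was nearest to Uap1l1 (0.807, 0.421), Galm (0.807, 0.517) and Ogfrl1 (0.804, 0.433), and Nupr1 to Hsd17b12 (0.871, 0.503), Map3k8 (0.867, 0.607) and Litaf (0.864, 0.56). Ddit4 was nearest to 8430408G22Rik (0.895, 0.734), Gadd45g (0.842, 0.847) and Tsc22d3 (0.814, 0.618), the last being on the glucocorticoid-responsive list. Eif4ebp1 was nearest to Myl12a (0.857, 0.68), Pmm1 (0.835, 0.572) and Pdlim3 (0.827, 0.651). Atf4 was nearest to Pfdn5 (0.866, 0.85), Hist1h2bp (0.865, 0.829) and Apopt1 (0.857, 0.872), which it followed as closely within groups. Atf3 was nearest to Xirp1 (0.788, 0.808), 2010111I01Rik (0.768, 0.651) and Csrp3 (0.741, 0.698), and Chac1 to Bhlhe40 (0.782, 0.683), Flvcr1 (0.741, 0.728) and Hfe2 (0.703, 0.382). Ranked by the deviations alone, the nearest genes were mostly others, for Atf5 Tekt1, Nek8 and Maz.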

How the data were processed

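Poly(A) RNA was sequenced as directional 50-base single-end reads. The authors trimmed reads with Cutadapt (version 1.9.1) and quantified Ensembl transcripts of GRCm38 by sense strand with kallisto (version 0.43.1), sharing a read that fit several transcripts equally among them, and deposited estimated counts and TPM per gene and library. The transcript set is stated as protein-coding, but the deposited tables also hold other genes. Here the estimated counts were rounded and tested in R 4.3.3 with edgeR 4.0.16 (TMM, robust quasi-likelihood, 1 mean for each of 8 groups over 40 libraries), keeping genes at 1 CPM or more in at least 5 libraries, with Benjamini-Hochberg adjustment over 13543 genes and a threshold of 0.05. These genes held at least 99.8% of every library's counts. The deposited TPM were used to compare genes and, as log2(TPM + 1) or log2(TPM + 0.1), in limma 3.58.1 as alternatives. DESeq2 1.42.0, other scaling, no filter, insert size as a term, fits of only the groups compared and leaving out each library were further alternatives. Correlations used log2 CPM with a prior count of 2. Depth limits the low genes most, Trib3 having as few as 2 counts in a library. The p-values measure the spread between mice.

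The members, gene lists and comparisons were chosen with earlier results of these data known. Besides the members and Tsc1, the genes named were the 2 called genes of each list with the largest log2 fold change, provided that 1 of the groups averaged 5 CPM or more, and the 3 nearest genes per member. Slc1a4, Slc7a11, Sdf2l1, Nars2, Stbd1 at 9 months and between ages, Tekt1, Nek8 and Maz fell outside this rule and were named after their values were seen. Cebpb, Cebpa, Jun and Jund were not analysed here. Gene positions are from GENCODE M21.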

Additional observations from a re-analysis of the deposited data

Results flagged for a closer look

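A library standing apart from the other 4 of its group by Dixon's criterion for 5 samples (0.71) was found in 10 of 80 member-by-group sets, where chance gives 4, at about 1 in 20. For Atf4 these were library 2 of 3mCON at 143 CPM (nearest other 172) and library 1 of 9mCON+RM at 280 CPM (nearest 211). For Atf3 they were library 4 of 3mTSCmKO at 20.3 CPM (nearest 7.09) and library 3 of 9mCON+RM at 51.7 CPM (nearest 5.74). For Trib3 they were library 2 of 9mCON+RM at 0.309 CPM (nearest 1.35) and library 3 of 9mTSCmKO at 10.7 CPM (nearest 5.1). Library 3 of 9mTSCmKO was also apart for Nupr1, at 38.1 CPM (nearest 19.2). For Sesn2 they were library 2 of 3mCON+RM at 3.74 CPM (nearest 3.05) and library 1 of 9mTSCmKO+RM at 9.55 CPM (nearest 6). For Eif4ebp1 it was library 2 of 9mTSCmKO at 49 CPM (nearest 69.7).

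In a test of the difference itself, the rapamycin effect differed between TSCmKO and CON for 2 of the 10 members at each age. Among all genes 4.87% passed at 9 and 3.45% at 3 months. The log2 differences were -2.20 for Trib3 and -0.95 for Sesn2 at 9 months, and -0.98 for Sesn2 and -4.40 for Ddit4 at 3 months. The Sesn2 calls were lost in 8 (9 months) and 7 (3 months) of the 20 fits that left out 1 library.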

How the results depend on the processing

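For the 10 members and Tsc1, leaving out 1 library at a time gave 1540 values. Of these, 1481 stayed on the same side of the threshold, 48 lost a call and 11 gained one. Values that were not called could change sign and still count as staying. The other alternatives gave 1089, of which 1056 stayed, 15 lost and 18 gained a call, and no called value turned its direction. The number of members called ranged over the fits without 1 library from 8 to 9 (genotype at 9 months), 4 to 6 (genotype at 3 months), 0 to 1 (genotype by age), 6 to 6 and 5 to 7 (rapamycin in 9mTSCmKO and 3mTSCmKO), 1 to 3 and 1 to 1 (rapamycin in 9mCON and 3mCON), 1 to 3 and 1 to 2 (rapamycin by genotype at 9 and 3 months), and 2 to 3 and 3 to 3 (treated knockout against control at 9 and 3 months). For genotype by age it was 1 in place of 0 (Ddit3) with insert size as a term, DESeq2 and limma with both offsets. For rapamycin in 9mCON it was 1 in place of 2 with no filter and with only the groups compared. For rapamycin in 3mCON it was 2 in place of 1 with only the groups compared and with limma on log2(TPM + 0.1). For rapamycin by genotype it was 1 in place of 2 at 9 months with insert size as a term or only the groups compared, and 1 at 3 months with no filter. For treated knockout against control at 3 months it was 5 in place of 3 with only the groups compared. The causes were not tested. Over all genes, fits of only the groups compared called 2647 in place of 5133 (genotype at 9 months), 312 in place of 669 (genotype by age), 2544 in place of 4410 (rapamycin in 9mTSCmKO), 554 in place of 1604 (9mCON), 419 in place of 92 (3mCON), 209 in place of 660 and 1194 in place of 467 (rapamycin by genotype at 9 and 3 months) and 3611 in place of 2260 (treated knockout at 3 months). No filter called 38 (3mCON) and 435 (rapamycin by genotype at 9 months), DESeq2 called 181 (3mCON), and leaving out 1 library gave 35 to 70 in 3mCON. By TPM, 9mTSCmKO ranked 2 in place of 1 among the group means of Atf3. Replicate numbers did not pair the libraries (4 of 40 same-numbered pairs correlated above 0.1, r from -0.363 to 0.289). With a replicate block 119 of 121 values kept their call, Atf5 in 9mCON on rapamycin gained one (-0.41, adjusted p = 0.0341) and Chac1 in treated 9-month knockouts lost one (-0.89, adjusted p = 0.0549, edgeR).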
